A study of Mus musculus with 14 samples.

Results

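Activated bulge stem cells of old mice were compared with those of young mice, using the 4 libraries whose titles name this cell population, 2 from mice of 24 months and 2 from mice of 2 months, out of 14 libraries in the series. The mice were wild type, of the C57BL/6 strain, their dorsal skin had been depilated at both ages, and the cells had been sorted by flow cytometry into a phenol-based lysis reagent before mRNA libraries were made. Bulge stem cells of resting (telogen) skin and interfollicular epidermis, each with 2 libraries at each age, completed a model of 12 libraries in 6 groups of 2. The labels name no sort markers, no time after depilation, no sex and no animal for any library, and the p-values below therefore rest on the spread from library to library alone, which may be technical.

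The bulge is the niche of the outer root sheath in which hair follicle stem cells rest between hair cycles, held quiescent by BMP signals and by the matrix around them. Pulling out the hair starts a new growth phase, in which cells of the hair germ and then of the bulge divide under Wnt, FGF and Hedgehog signals and feed the new hair. The comparison asks how the RNA of bulge cells from depilated skin differs between old and young animals.

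Levels are given as FPKM, fragments scaled to the length of the transcript and the depth of the library, after 1 common divisor for all libraries, and differences as log2(FPKM + 1) at 24 minus 2 months, which understates the difference of genes at low levels. Where 4 levels are given in a row, they are replicates 1 and 2 at 2 months and then replicates 1 and 2 at 24 months. The depth was estimated at 34.5, 31.9, 33.5 and 23.6 M fragments (mega-fragments) in that order, against 22.5 to 45.9 M over the 12 libraries. Replicate 2 had lower levels of short transcripts than replicate 1 at both ages, with a Spearman correlation across genes between transcript length and the difference of replicates of 0.544 at 2 months and 0.468 at 24 months. In the shortest of 10 length bins, replicate 2 lay below replicate 1 by a median log2 difference of -0.82 at 2 months and -0.76 at 24 months. Each age had 1 library of either kind, and each difference is therefore also given within replicate 1 and within replicate 2. All 4 libraries held Xist, which coats and silences an X chromosome of female cells, at 16.1, 106, 23.8 and 143 FPKM, with the Y-linked gene Ddx3y at 0.0404 FPKM or less.

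**Figure D1:**
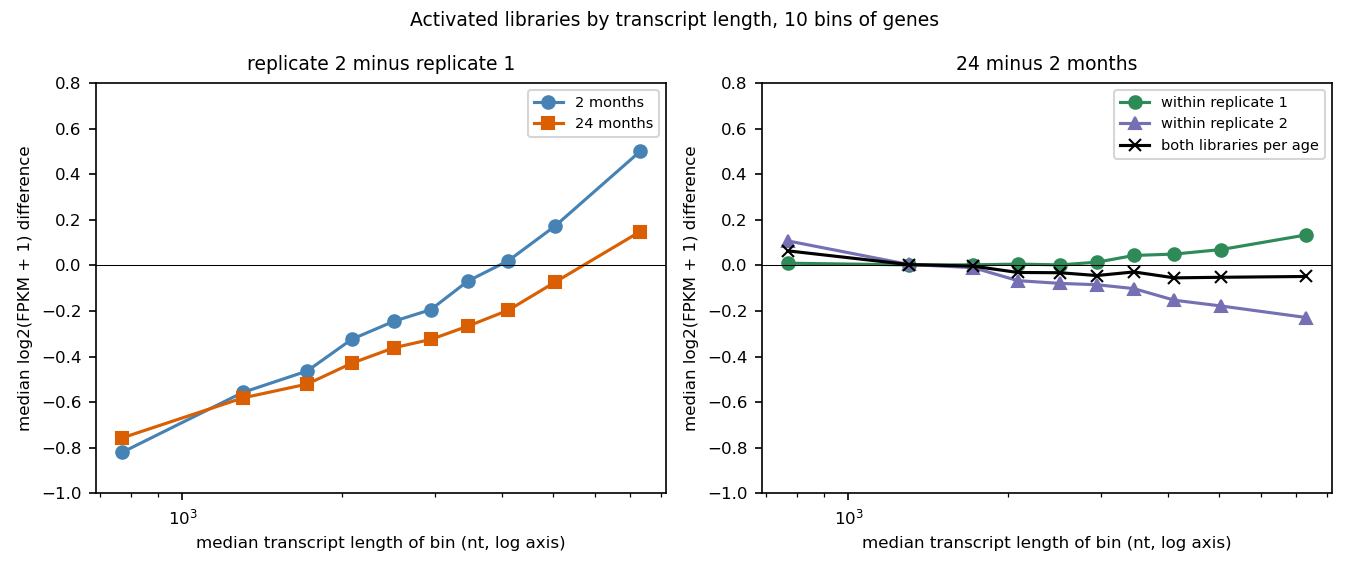
Median difference in log2(FPKM + 1) in 10 bins of genes by transcript length in nucleotides (log axis), on the left replicate 2 minus replicate 1 at each age and on the right 24 minus 2 months within replicate 1, within replicate 2 and over both libraries per age. The replicate difference climbs with length at both ages, from -0.82 to 0.50 at 2 months and from -0.76 to 0.15 at 24 months, while the age difference within replicate 1 ends at 0.13 and within replicate 2 at -0.23 in the longest bin.

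The sorted cells carried the RNAs that define the bulge at both ages. Krt15, the keratin of bulge cells, was at 2705, 2560, 3076 and 2409 FPKM, and Cd34, the surface marker by which mouse bulge cells are commonly sorted, was at 91.3, 59.9, 81.2 and 93.5 FPKM. Neither separated the ages. Lgr5, a Wnt-responsive receptor of the lower bulge and hair germ, was at 27.7, 76.1, 27.1 and 44.1 FPKM, higher in replicate 2 than in replicate 1 at each age. The proliferation marker Mki67 was at 34.0, 83.4, 43.5 and 57.1 FPKM, so dividing cells were present in all 4 libraries. Shh, the ligand that the growing hair germ and matrix produce, was at no more than 0.422 FPKM, too low to be tested.

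RNAs of other cell types were present at levels that were unequal between libraries. The 7 fibroblast markers tested, of 10 listed, summed to 585, 124, 189 and 102 FPKM. The collagen genes Col1a1 (103, 3.54, 4.80 and 1.22 FPKM) and Col3a1 (112, 0.0235, 5.71 and 0.0167 FPKM) and the matrix protein gene Lum (25.0, 0.0135, 2.12 and 0 FPKM) were highest in replicate 1 at 2 months. Across the 7 fibroblast markers tested, the median age difference was -3.06 within replicate 1 and -0.02 within replicate 2. Epidermal differentiation genes were likewise uneven, with a sum over the 26 genes tested of 15575, 1830, 9505 and 3373 FPKM. In bulk RNA, fewer cells of a type and less RNA per cell cannot be told apart.

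No gene passed the limma test across all genes. Of 12483 genes tested, 0 had a Benjamini-Hochberg adjusted p under 0.05 (0.0%), and 237 had an unadjusted p under 0.05 (1.9%), of which 78 (0.625%) were higher and 159 (1.27%) lower at 24 months. With equal library totals the unadjusted split was 102 higher and 116 lower. The ages did not overlap, with both libraries of one age above both of the other, for 914 genes higher (7.32%) and 1207 genes lower (9.67%) at 24 months. This split moved with the scaling, to 1187 higher and 871 lower with equal library totals and to 1361 and 1339 after quantile normalization. Within both replicate numbers the 24-month library was the higher one for 3119 genes (25.0%) and the lower one for 3790 genes (30.4%). Genes are not independent replicates; across them, the difference within replicate 1 and that within replicate 2 had a Spearman correlation of 0.198. An exact permutation test of 2 against 2 libraries cannot go below a two-sided p of 0.333, and the median standard error of a gene's log2 difference was 0.325. From the 4 activated libraries alone that median was 0.340. Standard errors and intervals below use a spread per gene shared by the 12 libraries, in which telogen replicates lay closer together than activated ones. They may therefore be too narrow for activated cells. The genes below are therefore described by their levels and differences, and none of them is called changed.

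The keratin gene Krt24 (chromosome 11, 99141407 to 99146552 on the minus strand, mm9) was higher in old cells, with replicates close together. Its levels were 25.9, 24.1, 83.9 and 80.3 FPKM. The mean was 3.28-fold higher at 24 months, with a log2 difference of 1.68 (SE 0.331, 95% interval 0.94 to 2.41; limma unadjusted p = 0.000482, adjusted p = 0.566). Krt24 is among the markers of the resting bulge, where it stood at 545 and 625 FPKM at 2 months and 707 and 757 FPKM at 24 months, far above the activated cells of either age. In telogen cells its age difference was 0.33.

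Of 29 bulge stem cell markers tested, 4 were higher without overlap and 0 lower, against 7.32% and 9.67% of all genes, and the median difference was 0.10, against -0.02 over all genes tested. Besides Krt24 these were genes for secreted proteins, Ltbp2, Postn and Dkk3. Dkk3, a secreted protein of the Dickkopf family named after its values were seen, was at 72.5, 97.1, 117 and 99.3 FPKM. Ltbp2, which binds latent TGF-beta complexes in the matrix, was at 9.74, 12.1, 16.4 and 16.5 FPKM, a log2 difference of 0.56. Postn, the matrix protein periostin, was at 1276, 1182, 1979 and 1522 FPKM, a difference of 0.50 with an SE of 0.835. The median of the marker list was 0.34 within replicate 1 and -0.11 within replicate 2, and it was -0.05 without replicate 1 at 24 months. The transcription factors of the bulge showed no common direction, with Sox9 at 119, 123, 134 and 70.5 FPKM, Lhx2 at 115, 198, 166 and 167 FPKM and Nfatc1 at 45.2, 87.3, 75.2 and 90.7 FPKM.

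Several secreted factors and receptors were also higher at 24 months. The skin chemokine Ccl27a, which draws T cells to skin, was at 95.6, 58.2, 364 and 141 FPKM, a log2 difference of 1.59 (SE 0.589). Its near copy Ccl27b was at 119, 59.5, 552 and 201 FPKM and the neighbouring receptor gene Il11ra2 at 2.72, 1.63, 10.2 and 6.45 FPKM. These genes lie in one stretch of chromosome 4 that is repeated, Ccl27b and Il11ra2 being listed at 3 places each, so reads of the copies cannot be assigned with certainty and the rows do not count as separate genes. The single-copy neighbour Il11ra1 was at 42.7, 39.2, 60.9 and 48.9 FPKM, a difference of 0.41. Cck, which encodes the peptide cholecystokinin, was at 2.83, 1.62, 15.8 and 4.46 FPKM, higher at 24 months within both replicates but most of all in replicate 1. Igfbp5, a secreted binding protein for insulin-like growth factors, was at 9.55, 9.999, 15.1 and 16.2 FPKM, with replicates closer to each other than the ages (log2 difference 0.62, SE 0.218). The growth factor Fgf1 was at 11.1, 12.4, 17.9 and 16.4 FPKM, a difference of 0.51. Porcn, the acyltransferase that Wnt ligands need for secretion, was at 29.3, 15.2, 53.4 and 33.8 FPKM.

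Other genes among the higher ones had varied roles. Piwil2, a PIWI protein known from germ cells, was at 5.95, 13.0, 20.6 and 19.2 FPKM. Its log2 difference was 1.08 in activated and 0.85 in telogen cells. Casp1, the protease that matures interleukin-1 beta, was at 14.9, 9.68, 22.8 and 19.7 FPKM, and the tight junction gene Cldn8 at 7.31, 7.55, 14.9 and 11.4 FPKM. Both were higher in each old library than in each young one, by 0.77 and 0.74 on the log2 scale. The beta-defensin Defb3 rested on few reads, about 5, 2, 40 and 17 fragments in the 4 libraries.

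**Figure D2:**
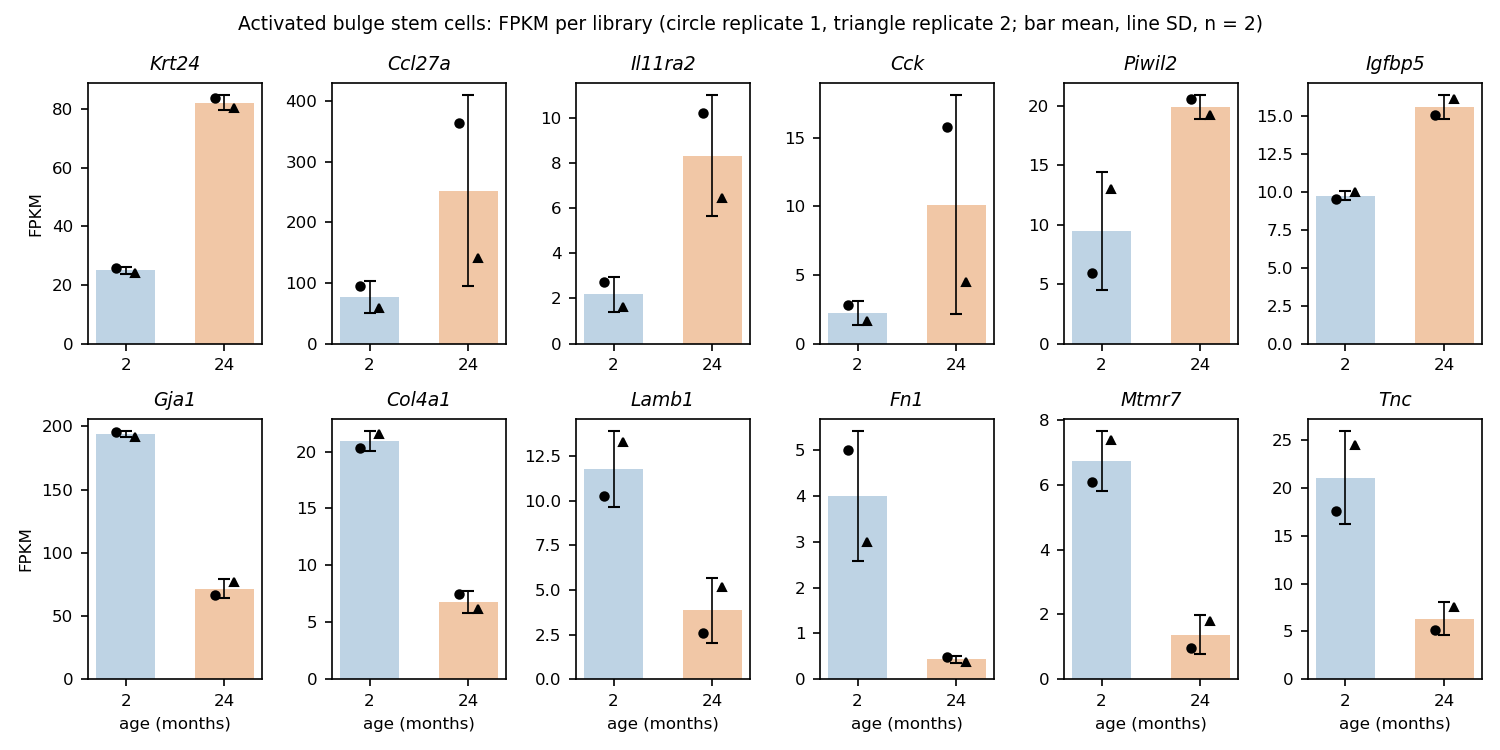
FPKM of 12 genes at 2 and 24 months in activated bulge stem cells, each library a point (circle replicate 1, triangle replicate 2), bars the mean and lines the SD of 2 libraries; each panel has its own axis from 0. Krt24, Igfbp5, Gja1 and Col4a1 have replicates close together and ages apart, whereas Ccl27a and Cck are spread widely at 24 months.

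Some genes of the basement membrane and of the provisional matrix were among those lower in old cells. Of 24 genes for collagens and niche matrix tested, 7 were lower without overlap and 2 higher, where 9.67% and 7.32% of all genes tested were, and 6 were lower at an unadjusted p under 0.05 (1.27% of all genes). The median difference was -0.21, but -0.07 without replicate 2 at 2 months and -0.10 without replicate 2 at 24 months. Of 15 hemidesmosome and basal adhesion genes 2 were lower and 0 higher without overlap, with a median of 0.12. Col4a1 (chromosome 8, 11198423 to 11312826), a chain of the collagen network of basement membranes, was at 20.3, 21.6, 7.49 and 6.12 FPKM. The mean was 3.08-fold higher at 2 months, and the log2 difference was -1.50 with an SE of 0.306 (limma adjusted p = 0.566). Its partner chain Col4a2, which shares a divergent promoter with it, was at 16.7, 18.7, 9.65 and 7.45 FPKM, a difference of -0.98. The laminin chain Lamb1 was at 10.3, 13.3, 2.56 and 5.16 FPKM and Lamc1, named after its values were seen, at 14.4, 27.9, 10.8 and 12.8 FPKM. Each of these 4 genes had both old libraries below both young ones. In telogen cells Col4a1 and Lamb1 were lower at 24 months as well, by -0.70 and -1.14.

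Fibronectin, Fn1, a glycoprotein to which integrins bind, was at 5.0, 2.99, 0.489 and 0.376 FPKM, or about 1293, 905, 121 and 96 fragments. Its mean was 9.24-fold higher at 2 months and its log2 difference was -1.77 (SE 0.324, limma adjusted p = 0.42). Tenascin C, Tnc, a matrix protein of growing and wounded tissue, was at 17.6, 24.5, 5.11 and 7.55 FPKM, and had a similar difference in telogen cells, -1.30 against -1.59 here. Fibroblasts also make these proteins, and the fibroblast markers were high in replicate 1 at 2 months. The part of fibroblast RNA in these differences was not tested. Within replicate 2 the fibroblast markers summed to 124 and 102 FPKM at 2 and 24 months. Of them, Col1a2 was nearly level at 5.72 and 5.65 FPKM, but Col1a1 was lower at 24 months, at 3.54 and 1.22 FPKM. Dcn was lower as well, at 0.286 and 0.1315 FPKM. In the same replicate Fn1 differed by -1.54, Col4a1 by -1.66, Lamb1 by -1.22 and Tnc by -1.58. Not all matrix genes took this direction: Col8a2 was at 9.89, 14.3, 16.3 and 18.0 FPKM.

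Cell contact and signalling genes were among the other lower genes. Gja1 (chromosome 10, 56097106 to 56110225), which encodes the gap junction protein connexin 43, was at 196, 192, 66.2 and 77 FPKM. Its mean was 2.71-fold higher at 2 months, with a log2 difference of -1.43 (SE 0.319, 95% interval -2.14 to -0.72, limma adjusted p = 0.831). Mtmr7, a phosphoinositide phosphatase, was at 6.09, 7.40, 0.954 and 1.80 FPKM and had the smallest p of the named genes (log2 difference -1.72, SE 0.272, limma adjusted p = 0.383). Pcp4, a calmodulin-binding peptide, was at 2.17, 2.42, 0.284 and 0.615 FPKM, and the endosomal protein gene Nsg1 at 7.13, 11.3, 2.26 and 2.98 FPKM. Pvr, a cell adhesion receptor of the nectin-like family, was at 7.27, 10.4, 3.38 and 3.11 FPKM. The cationic amino acid transporter Slc7a2 was at 7.60, 14.6, 2.12 and 3.66 FPKM, and Nppc, the precursor of C-type natriuretic peptide, at 18.5, 10.6, 4.40 and 4.92 FPKM. In all of these genes the old libraries lay below the young ones.

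Cell cycle genes were lower at 24 months by small amounts that both replicate numbers shared. Of 38 DNA replication and S phase genes, 27 (71.1%, against 9.67% of all genes tested) were lower without overlap of the ages and 0 higher. Within both replicate numbers 34 were lower, against 30.4% of all genes. The median log2 difference was -0.31 (-0.27 within replicate 1, -0.32 within replicate 2). None had an unadjusted p under 0.05. The 6 subunits of the MCM helicase, which unwinds DNA at replication forks, were all lower without overlap, by -0.28 to -0.54. Mcm4 was at 54.7, 57.8, 41.4 and 35.4 FPKM, and Mcm10, which helps to start replication forks, at 7.55, 10.1, 5.63 and 6.04 FPKM. The ribonucleotide reductase subunit Rrm2 was at 77.1, 66.2, 52.6 and 47.7 FPKM and the sliding clamp Pcna at 258, 220, 202 and 176 FPKM. The count of genes without overlap rested on the scaling: it was 27 with the common divisor, 18 after a correction for transcript length, 10 after quantile normalization and 0 with equal library totals, while the median stayed between -0.26 and -0.31 in these settings. Leaving out any 1 of the 4 libraries gave medians of -0.26 to -0.33.

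Genes of mitosis had the same direction. Of 42, 20 were lower without overlap and 0 higher, against 9.67% and 7.32% of all genes. Within both replicate numbers 32 were lower, against 30.4% of all genes. The median was -0.23 (-0.13 and -0.37 within replicates 1 and 2). With equal library totals 5 were lower without overlap. Ccna2, the cyclin of S phase and mitotic entry, was at 58.7, 57.0, 49.0 and 42.7 FPKM and the checkpoint kinase Bub1 at 10.1, 10.6, 7.47 and 8.03 FPKM. Top2a, which untangles chromosomes, was at 82.9, 118, 69.9 and 81.6 FPKM, the old libraries below the young ones by a narrow margin. In 10 of the 42 genes the replicates differed in opposite directions. Mki67, whose levels are given above, was higher at 24 months within replicate 1 and lower within replicate 2, with overlapping ages. Of 24 cyclins, kinase inhibitors and senescence genes, 7 were lower without overlap and 2 higher, against 9.67% and 7.32% of all genes, but 3 and 0 with equal library totals. Among the lower ones was Ccnd1 at 51.1, 51.3, 43.6 and 37.4 FPKM. The senescence marker Cdkn2a was below 0.33 FPKM in all 4 libraries and was not tested. The cell cycle inhibitor Cdkn1a was at 121, 59.7, 81.2 and 46.2 FPKM, with overlapping ages.

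Some promoters of such genes show the letters through which the genes are commonly grouped. Stretches of 250 bases before the start of transcription are printed here for members of the DNA replication, mitosis and interferon lists that carry these letters. Sequences are from RefSeq on GRCm38.p6, a later build than the mm9 of the FPKM files, and coordinates of the 2 builds are not interchangeable. Capitals mark E2F-type letters (TTTCCCGC or TTTGGCGC, on either strand) in Mcm6 and Mcm5, the cell cycle homology region (TTTGAA, on either strand) in Top2a and Prc1, and the core of the interferon-stimulated response element (GAAA, 2 bases of any kind, then GAAA, on either strand, where matches may overlap) in Isg15 and Irgm1.
Mcm6 (chr1:128359706-128359955, minus strand): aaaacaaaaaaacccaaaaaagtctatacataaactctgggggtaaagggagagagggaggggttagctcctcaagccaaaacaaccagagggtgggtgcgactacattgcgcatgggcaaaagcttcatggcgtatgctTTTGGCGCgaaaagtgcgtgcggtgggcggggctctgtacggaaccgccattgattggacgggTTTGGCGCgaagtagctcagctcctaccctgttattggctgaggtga
Mcm5 (chr8:75109259-75109508, plus strand): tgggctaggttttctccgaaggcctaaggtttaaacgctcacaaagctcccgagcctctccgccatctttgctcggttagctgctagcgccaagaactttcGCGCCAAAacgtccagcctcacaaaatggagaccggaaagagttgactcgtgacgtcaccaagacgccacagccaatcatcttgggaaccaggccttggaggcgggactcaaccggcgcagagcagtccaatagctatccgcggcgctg
Top2a (chr11:99024190-99024439, minus strand): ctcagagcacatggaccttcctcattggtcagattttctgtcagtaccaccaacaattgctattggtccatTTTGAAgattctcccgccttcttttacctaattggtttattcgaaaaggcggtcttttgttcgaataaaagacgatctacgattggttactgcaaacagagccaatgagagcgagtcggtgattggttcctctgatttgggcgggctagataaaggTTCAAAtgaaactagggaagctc
Prc1 (chr7:80294226-80294475, plus strand): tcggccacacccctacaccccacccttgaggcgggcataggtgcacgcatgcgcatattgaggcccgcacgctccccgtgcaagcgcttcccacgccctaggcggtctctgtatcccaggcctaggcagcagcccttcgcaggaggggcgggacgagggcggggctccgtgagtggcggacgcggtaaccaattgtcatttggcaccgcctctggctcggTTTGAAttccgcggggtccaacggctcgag
Isg15 (chr4:156200819-156201068, minus strand): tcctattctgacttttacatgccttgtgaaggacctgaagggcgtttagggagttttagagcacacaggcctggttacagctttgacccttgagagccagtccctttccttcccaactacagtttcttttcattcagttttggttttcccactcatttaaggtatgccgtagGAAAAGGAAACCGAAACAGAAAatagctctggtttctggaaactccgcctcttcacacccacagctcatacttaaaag
Irgm1 (chr11:48871421-48871670, minus strand): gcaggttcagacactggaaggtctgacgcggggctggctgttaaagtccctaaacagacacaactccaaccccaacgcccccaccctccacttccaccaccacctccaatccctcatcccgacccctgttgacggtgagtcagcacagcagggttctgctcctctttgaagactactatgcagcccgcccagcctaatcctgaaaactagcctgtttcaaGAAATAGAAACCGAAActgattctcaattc
E2F-type letters were in 7 of 31 DNA replication genes matched to a promoter (22.6%), against 1.3% of 32851 promoters and 2.94% of the promoters of genes tested. Of these 7 genes 4 were lower without overlap, as were 19 of the genes without the letters, so the pattern was not limited to genes that carry them. The cell cycle homology letters were in 14 of 35 mitosis genes (40.0%), against 16.0% of all promoters and 12.5% of the promoters of genes tested. Of these 14 genes 7 were lower without overlap, as were 9 of the genes without the letters. A match describes the sequence only, and no binding was measured.

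**Figure D3:**
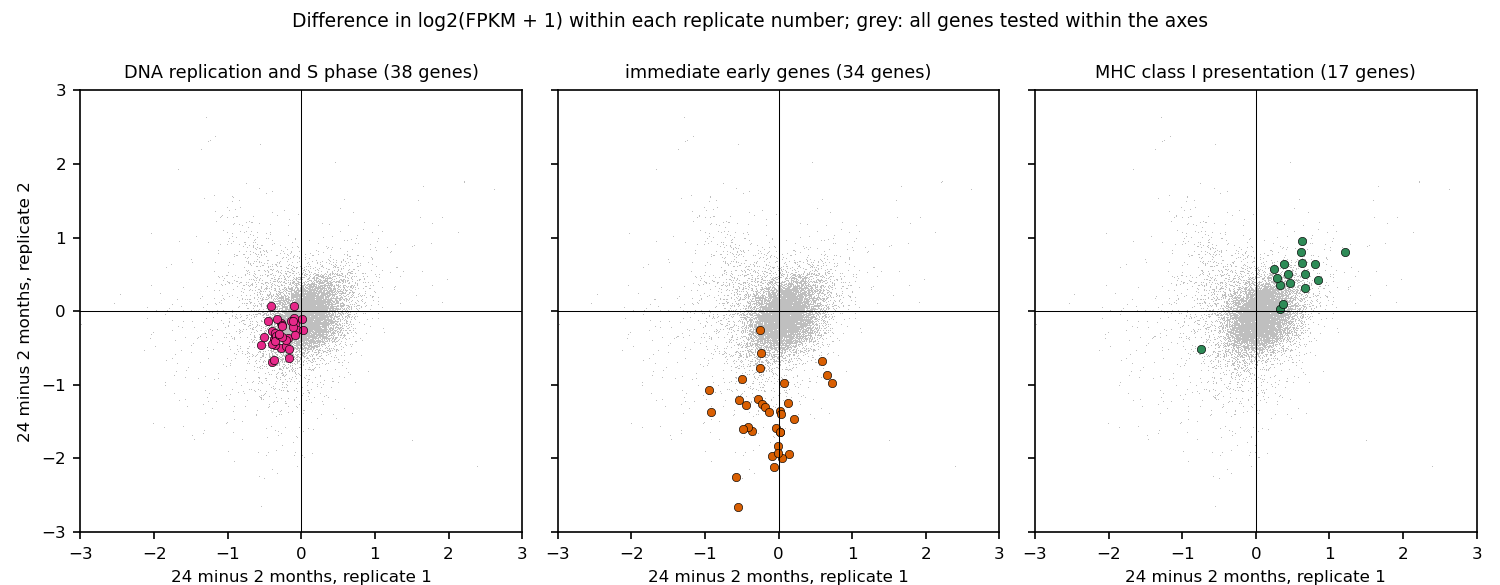
Age difference in log2(FPKM + 1) within replicate 1 (horizontal) and within replicate 2 (vertical) for 38 DNA replication genes, 34 immediate early genes and 17 genes of MHC class I presentation, with all genes tested in grey. Of the 38 replication genes 34 lie below 0 on both axes, and 16 of the 17 MHC class I genes above 0 on both, while the immediate early genes spread downward along the replicate 2 axis. Over all genes tested, 30.4% were below 0 in both replicates and 25.0% above 0 in both.

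Immediate early genes, transcription factors and signal regulators induced within minutes of a stimulus or of tissue handling, were lowest in 1 library. Of 34, 22 were lower and 0 higher within both replicate numbers, against 30.4% and 25.0% of all genes tested. Their median difference was -0.81 over 34 genes, but -0.11 within replicate 1 and -1.37 within replicate 2. Fos was at 1419, 1601, 1440 and 628 FPKM, Egr1 at 713, 974, 790 and 254 FPKM and Junb at 880, 925, 877 and 259 FPKM. In each of them replicate 2 at 24 months stood far below the other 3 libraries, which lay close together or overlapped between ages, and it was also the library of least depth. Without it the median was -0.05, with 7 genes higher and 10 lower without overlap. Both old libraries lay below both young ones for 10 of 34 genes (9.67% of all genes), for 15 with equal library totals and for 18 after quantile normalization or the length correction, Junb among them by a narrow margin, and more clearly for Fosl1 at 97.5, 103, 50.9 and 39.3 FPKM and for the orphan nuclear receptor Nr4a3 at 24.1, 39.9, 16.2 and 5.46 FPKM. Dusp6, the phosphatase that damps ERK signalling, was at 202, 209, 134 and 54.6 FPKM. Heat shock and unfolded protein response genes shared the imbalance, with a median of 0.01 within replicate 1 and -0.56 within replicate 2 over 24 genes, and 0.10 without replicate 2 at 24 months.

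Antigen presentation genes were higher in old cells within both replicates. Of 17 genes of MHC class I presentation, 8 (47.1%, against 7.32% of all genes tested) were higher without overlap and 1 lower. Within both replicate numbers 16 were higher, against 25.0% of all genes. The median log2 difference was 0.49 (0.46 and 0.50 within replicates 1 and 2). The immunoproteasome subunits Psmb8 (26.9, 18.4, 63.6 and 32.8 FPKM) and Psmb9 (31.1, 22.6, 54.8 and 36.0 FPKM), which cut peptides for presentation, were higher in both old libraries. The peptide transporter Tap1 was at 38.8, 33.1, 53.7 and 43.5 FPKM and the class I heavy chain H2-K1 at 368, 268, 499 and 382 FPKM, where reads may be shared with related heavy chains. The light chain B2m was at 954, 548, 1242 and 855 FPKM, with overlapping ages. Cd1d1, which presents lipids rather than peptides, was the lower one at 3.14, 2.94, 1.48 and 1.76 FPKM. Leaving out any 1 library gave list medians of 0.25 to 0.78, and 12 genes were higher without overlap with equal library totals. None of the 17 genes was higher at an unadjusted p under 0.05.

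Interferon response genes were higher mostly within replicate 1. Of 26 tested, 7 were higher without overlap and 0 lower, against 7.32% and 9.67% of all genes, with a median of 0.24 (0.50 and 0.07 within replicates 1 and 2). Without replicate 1 at 24 months the median was -0.09, on the other side of 0. Usp18, the protease that removes Isg15 from proteins, was at 1.57, 1.64, 5.32 and 2.95 FPKM, and the immunity-related GTPase Irgm1 at 2.32, 2.78, 3.94 and 3.57 FPKM. The interferon-gamma-induced chemokines took the other direction, with Cxcl10 at 11.5, 9.31, 5.59 and 3.20 FPKM and Cxcl9 at 1.14, 1.21, 0.275 and 0.265 FPKM. The response element core seen in the promoters of Isg15 and Irgm1 was in 9 of 23 matched interferon genes (39.1%), against 2.98% of all promoters, and in 3 of 14 matched MHC class I genes (21.4%). Higher without overlap were 3 interferon genes with the core and 2 without it. For MHC class I these counts were 0 and 8. The adhesion molecule Icam1, a common NF-kappa B target, was at 62.6, 123, 47.4 and 26.9 FPKM. The 8 T cell markers tested summed to 33.7, 25.6, 23.4 and 36.2 FPKM and did not separate the ages. The part of immune cells in these differences was not tested.

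**Figure D4:**
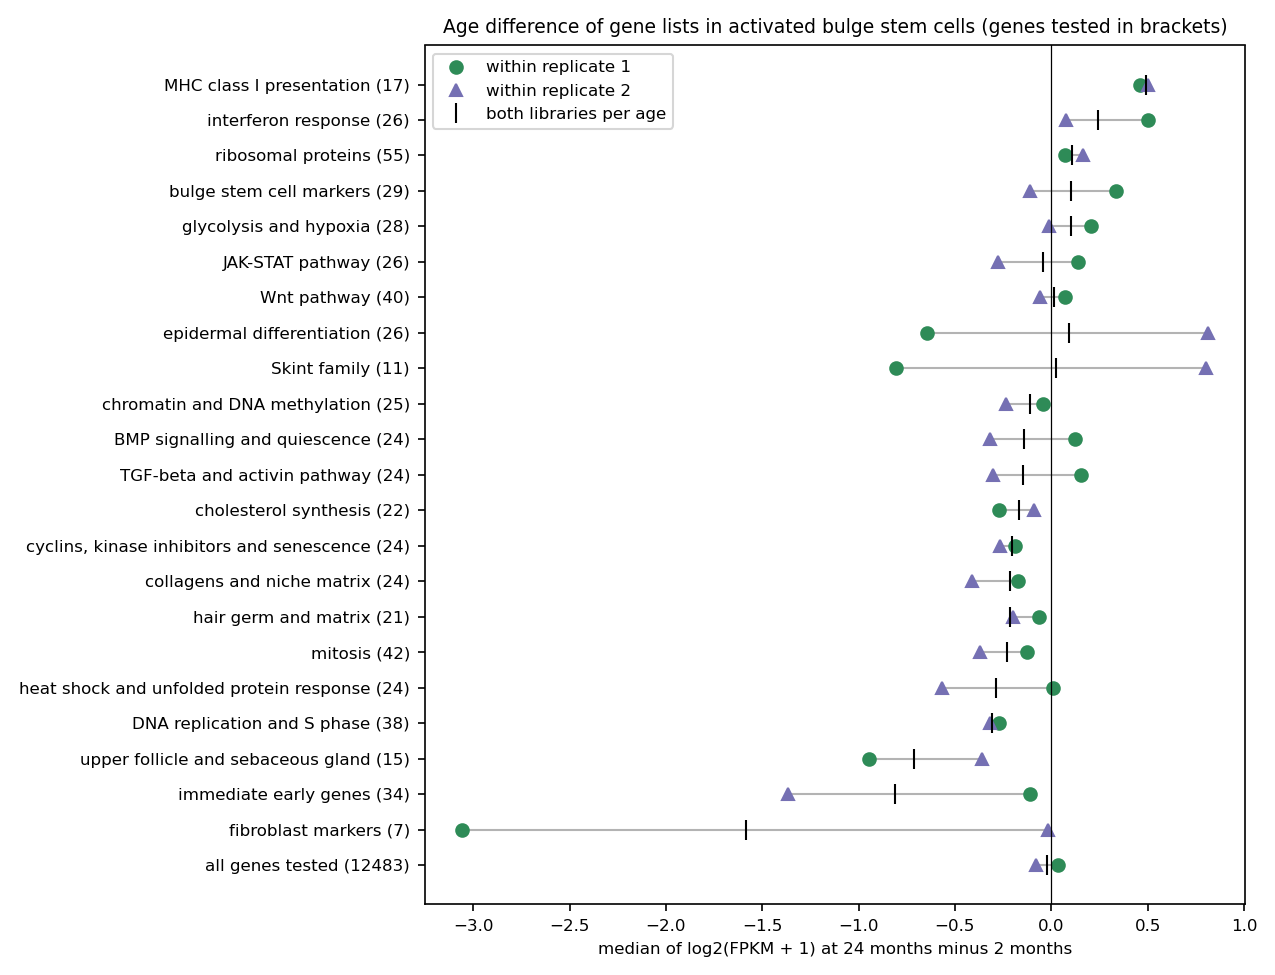
Median log2(FPKM + 1) at 24 minus 2 months of gene lists and of all 12483 genes tested, within replicate 1 (circles), within replicate 2 (triangles) and over both libraries per age (ticks). Both replicates give -0.27 and -0.32 for DNA replication and 0.46 and 0.50 for MHC class I presentation, whereas fibroblast markers (-3.06 and -0.02), epidermal differentiation (-0.65 and 0.81) and immediate early genes (-0.11 and -1.37) differ between replicates.

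Signalling lists of the hair cycle are given by their counts without overlap, which over all genes tested were 7.32% higher and 9.67% lower. Of 40 Wnt pathway genes 5 were higher and 4 lower without overlap, of 24 BMP and quiescence genes 0 and 2, and of 24 TGF-beta and activin genes 1 and 7. The TGF-beta count was 0 higher and 1 lower with equal library totals and 1 and 4 after quantile normalization. The median of that list was -0.15, and 0.10 without replicate 2 at 24 months. It includes Tsc22d1, a TGF-beta-induced transcription regulator, at 46.6, 63.5, 20.8 and 34.8 FPKM. Fstl1, a secreted BMP antagonist, was at 12.7, 20.8, 7.39 and 12.3 FPKM. Of 12 Hedgehog genes 1 was lower without overlap, the target Hhip at 0.164, 1.25, 0.0175 and 0.111 FPKM. Among 26 JAK-STAT genes 4 were higher and 3 lower, among 15 Notch genes 1 and 3, among 26 FGF and EGF receptor genes 1 and 2, and among 17 YAP and TEAD genes 0 and 2. Tead2, a partner of YAP on DNA, was at 7.38, 10.7, 4.96 and 5.5 FPKM.

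Genes of the hair germ and of neighbouring follicle compartments were mixed. Of 21 hair germ and matrix genes, 2 were lower without overlap, a share near the 9.67% of all genes, and 0 higher. Their median was -0.21, but -0.01 without replicate 2 at 24 months. They were the homeobox gene Dlx2 at 1.06, 1.30, 0.506 and 0.461 FPKM and the ligand Wnt10b at 2.11, 0.761, 0.460 and 0.605 FPKM, all near the lower limit of testing. Upper follicle and sebaceous gland genes had a median of -0.71, with 9 of 15 lower within both replicate numbers and 0 higher, against 30.4% and 25.0% of all genes tested. That median rested on replicate 1 at 2 months: it was -0.0023 without this library, -0.26 without replicate 2 at 24 months, -1.16 without replicate 1 at 24 months and -1.60 without replicate 2 at 2 months. Prdm1, a transcription repressor of sebaceous and upper follicle cells, was at 13.9, 18.0, 8.97 and 9.57 FPKM and was the 1 gene of the list without overlap. The lipid enzyme Soat1 was at 17.0, 3.16, 4.54 and 1.34 FPKM, highest in the same library as the fibroblast markers. Of 4 melanocyte genes tested, 3 were lower without overlap: the pigment enzymes Dct at 3.23, 3.21, 1.40 and 1.07 FPKM and Tyrp1 at 1.12, 0.772, 0.444 and 0.119 FPKM, and the melanosome protein Pmel at 1.58, 1.94, 1.07 and 0.830 FPKM. Their regulator Mitf was slightly higher, at 3.82, 3.66, 4.67 and 4.59 FPKM (0.25 for the sum of transcripts, but -0.16 for the main transcript alone).

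Metabolic lists differed little. Of 55 ribosomal protein genes, 44 were higher within both replicate numbers, against 25.0% of all genes, with a median of 0.11, and 1 was higher and 1 lower without overlap (24 and 1 with equal library totals). That median was 0.56 and 0.51 without replicate 1 at 2 months and without replicate 2 at 24 months, and -0.32 and -0.29 without each of the others. Of 66 oxidative phosphorylation genes 0 lacked overlap in either direction, with a median of 0.03. Cholesterol synthesis genes were lower within both replicate numbers for 14 of 22, against 30.4% of all genes, with a median of -0.17 and none without overlap, and the median was 0.31 without replicate 1 at 2 months and 0.20 without replicate 2 at 24 months. Of 25 chromatin and DNA methylation genes 7 were lower without overlap and 1 higher, against 9.67% and 7.32% of all genes, but 2 and 3 with equal library totals and 3 and 3 after quantile normalization. Among the lower ones was the Polycomb subunit Rnf2 at 21.4, 23.1, 17.9 and 16.1 FPKM. The 11 Skint genes tested and 22 of 26 epidermal differentiation genes differed in opposite directions in replicates 1 and 2. Over all genes tested, 5574 of 12483 did.

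The age difference of activated cells was then set against that of resting bulge cells and of epidermis in the same model. For activated minus telogen 0 of 12483 genes passed limma at an adjusted p under 0.05 (0.0%) and 98 had an unadjusted p under 0.05 (0.785%). For activated minus epidermis the counts were 0 (0.0%) and 157 (1.26%). The smallest unadjusted p values of the first difference included those of Pcp4, Pvr and Mtmr7, all lower with age in activated cells and between -0.30 and 0.09 in telogen cells. In telogen libraries Mtmr7 was at 0.867, 0.209, 0.302 and 0.149 FPKM, so that only the young activated cells held it above 2 FPKM among these 8 libraries. Each of these genes had a limma adjusted p of 1 for the difference.

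Among the lists, DNA replication genes had a median of -0.09 in telogen bulge cells and 0.02 in epidermis, against -0.31 in activated cells. In telogen cells 15 of 38 were lower and 4 higher without overlap, against 27.3% and 26.8% of all genes tested. Levels there were lower, and log2(FPKM + 1) understates differences at low levels. Mean Mcm10 was 0.546 and 0.367 FPKM at 2 and 24 months in telogen cells, against 8.84 and 5.84 FPKM in activated cells. Mean Mcm4 was 11.1 and 9.67 FPKM in telogen cells, against 56.3 and 38.4 FPKM. Mitosis genes had -0.34 in telogen and 0.11 in epidermis, against -0.23. MHC class I presentation was higher in all 3 populations, with medians of 0.49 in telogen cells, where 15 of 17 genes were higher without overlap, and 0.32 in epidermis, where 1 was. Over all genes tested, ages without overlap were more frequent in telogen cells (26.8% higher and 27.3% lower) and rarer in epidermis (5.29% and 3.96%) than in activated cells. Immediate early genes, -0.81 in activated cells, had medians of 0.28 in telogen cells and 0.33 in epidermis. Melanocyte genes were lower in telogen cells as well, with a median of -1.22 against -0.56 here. Collagens and niche matrix genes had medians of -0.26 in telogen cells and -0.10 in epidermis, against -0.21 here. In telogen cells 14 of these 24 genes were lower and 2 higher without overlap. Differences between populations in these medians were not tested. The telogen libraries were closer to each other, with a median absolute difference between replicates of 0.157 and 0.0909 on the log2 scale at 2 and 24 months, against 0.438 and 0.421 in activated cells, which bears on every count of genes without overlap.

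**Figure D5:**
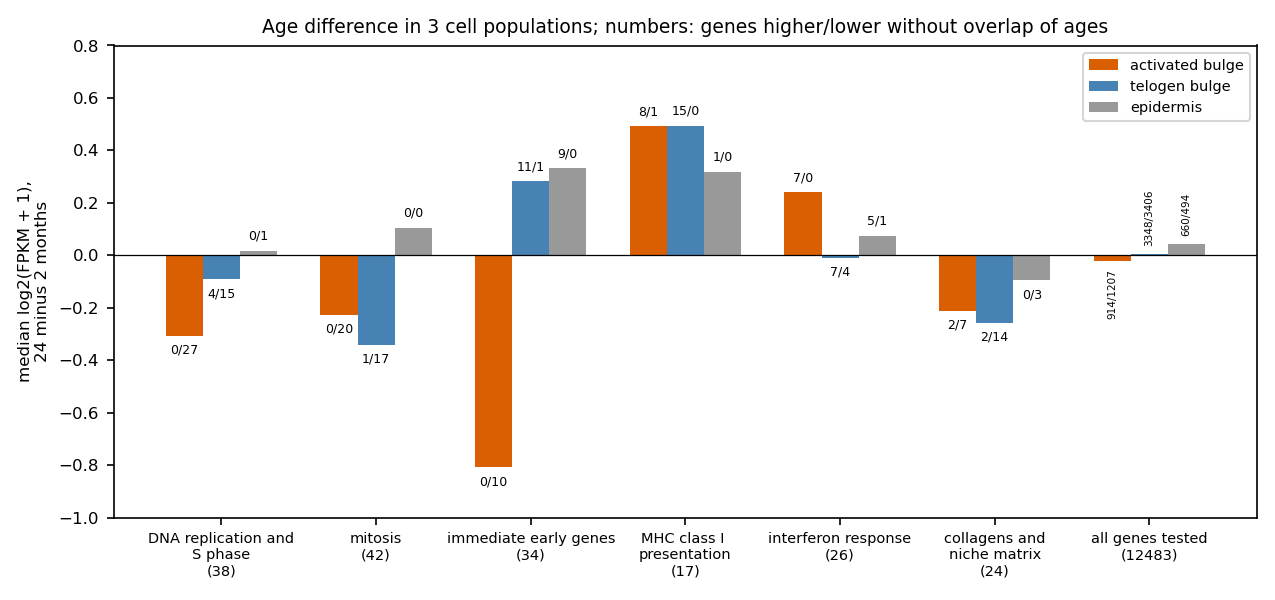
Median log2(FPKM + 1) at 24 minus 2 months for 6 gene lists and all genes tested in activated bulge, telogen bulge and epidermis, with the numbers of genes higher and lower without overlap of the ages beside each bar. MHC class I presentation is above 0 in all 3 populations (0.49, 0.49 and 0.32), while immediate early genes are below 0 in activated cells only (-0.81, 0.28 and 0.33).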

How the data were processed

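Deposited transcript files were used, which the authors made with TopHat and Cufflinks on mm9, per the submitters' processing notes; versions are not given in the sources used here. Each file gives FPKM per transcript. The deposited FPKM were far above the usual scale, so all were divided by 1 common number, 16408.9, and summed per gene (28018 transcripts, 22033 genes). Fragments were estimated from the confidence bounds of the FPKM in genes with a single transcript. Coverage times length, scaled to these, gave the fragments of all transcripts and the depth. Genes with at least 1 FPKM in 2 of 12 libraries and a transcript of at least 300 nucleotides were tested, leaving out failed estimates (listed at 0 in one library and over 1000 FPKM in another), among them Krt5 and Krt14. The 2 wounded libraries, made with another annotation, were not used.

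Values of log2(FPKM + 1) were fitted in limma 3.58.1 (R 4.3.3) with 1 mean per group, an intensity trend and Benjamini-Hochberg adjustment over all genes. The script was tested on simulated data. Alternatives were other pseudocounts (0.1 and 5), filters, scalings, main transcripts, library weights, a length correction, the replicate block and leaving out libraries. Named genes were up to 12 in each direction without overlap, at 5 FPKM or more and an unadjusted p under 0.05, the 4 of smallest p in each of 54 lists (43 with 5 or more genes tested), a set named whatever its values, and the 6 of smallest p for activated minus telogen. Some other genes were chosen after their values were seen: the MCM subunits other than Mcm4 and Mcm10, Rrm2, Pcna, Psmb9, Tap1, H2-K1, B2m, Isg15, Junb, Fosl1, Lamc1, Col8a2, Postn, Dkk3, Prc1 and Il11ra1. Results for a few genes chosen in this way are not reported here. The comparison and the lists were chosen with earlier results of these data known.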

Additional observations from a re-analysis of the deposited data

Results flagged for a closer look

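Genes with both old libraries on one side in activated bulge stem cells and both on the other side in telogen bulge stem cells are given here with the difference of the 2 age differences (log2, activated minus telogen). It was 2.12 for Cck (1.59 in activated and -0.52 in telogen cells), 0.69 for Ltbp2, 0.51 for Calml3, 0.94 for Igfbp5, 1.11 for Porcn, 0.70 for Fgf1, 0.56 for Jak3, 0.69 for Cd59a and 0.95 for Postn, all higher with age in activated cells and lower in telogen cells. It was -1.20 for Plk3, -1.59 for Egr2, -0.58 for Cdt1, -1.51 for Junb and -0.86 for Col16a1, each the other way. The difference itself was tested with limma, and each of these genes had an adjusted p of 1. Egr2, Plk3 and Junb belong to the genes that were low in replicate 2 of the activated cells at 24 months. Cck, the largest, was at 67.8 and 76.6 FPKM in telogen cells at 2 months and 51.4 and 48.4 FPKM at 24 months, far above activated cells of either age.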

How the results depend on the processing

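The count of genes with a limma adjusted p under 0.05 for age in activated cells was 0, and 1 with a pseudocount of 5 (Mtmr7, adjusted p = 0.0458, 0.0458 to 1 over its alternatives). Without a filter on low values it was 20 of 18632 genes, 6 higher and 14 lower, among them Pcp4. Leaving out 1 activated library gave 0 to 6. The 6, all lower and without replicate 2 at 2 months, included Col1a1, Col1a2 and Lum, and then the 2-month group was the library rich in fibroblast RNA, whose spread was assumed to be that of the other groups. For activated minus telogen the count was 0, with 1 without a filter and 0 to 1 with 1 activated or telogen library left out. For activated minus epidermis it was 0, with 3 without a filter and 0 to 1 with 1 library left out, the 1 being Col1a2 in both cases. Without either epidermis library at 24 months, activated minus telogen had 1, Hba-a2.

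The unadjusted count for age in activated cells, 237, was 101 with library weights, 112 from the 4 activated libraries alone, 134 at 5 FPKM or more, 706 without a filter and 293 to 493 with 1 activated library left out. With the replicate number as a replicate block within each population it was 811, or 1003 with the length correction, and 286 with 1 block over all libraries, with 0 at an adjusted p under 0.05 in each. The replicate deviations at 2 and 24 months correlated at 0.787 across genes in activated cells, but 2 pairs were not taken to show pairing. With the telogen numbers crossed (chosen after seeing the data, r = -0.125), activated minus telogen had 630 at an unadjusted p under 0.05 and 0 adjusted, against 532 and 0 with the replicate block uncrossed, 98 without it, 260 from the 8 libraries compared and 471 without a filter. The list counts under other settings were also chosen after seeing the data. Single genes were followed for the 143 named genes without overlap of the ages, sex-linked genes left out. Of 2555 values of these genes under 14 settings and 4 left-out libraries, 2552 kept their direction and side of the threshold. Mitf changed sign (-0.16 with main transcripts only), and Mtmr7 and Pcp4 passed the threshold as above. Where ages do not overlap, leaving out 1 library cannot change the direction, and another pseudocount keeps the order of the libraries. The count of 2552 was thus largely fixed by the choice of genes and does not measure their stability. Depth limits the genes at low levels: Pcp4 rested on about 43, 57, 5 and 12 fragments.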

Other observations

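Further genes without overlap of the ages included the chemokine receptor gene Ccrl1 at 48.7, 27.2, 94.0 and 51.8 FPKM and the glutathione transferase Gstt1 at 2.82, 2.0, 14 and 3.01 FPKM, both higher at 24 months. On the lower side were Coq10b, a mitochondrial coenzyme Q-binding protein, at 52.1, 46.0, 25.7 and 11.5 FPKM, and the matrix protein Abi3bp at 9.77, 3.79, 1.98 and 1.37 FPKM. Among clock genes the repressor Nfil3 was at 73.2, 116, 60.9 and 32.0 FPKM. Genes of secreted proteases and inhibitors lay on opposite sides, with Adamts1 at 104, 147, 54.4 and 34.7 FPKM and the inhibitor Timp3 at 43.3, 67.4, 84.7 and 70.6 FPKM. The monocarboxylate transporter Slc16a3 was higher with age in all 3 populations, by 1.08 in activated cells, 0.94 in telogen cells and 1.47 in epidermis.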
